A study of Codonopsis pilosula with 12 samples.

Results

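The comparison was between leaves of 2 cultivars of Codonopsis pilosula, a medicinal herb of the bellflower family, before any water was withheld. The G1 group (CG1) is Gandang No. 1, a selected cultivar, and the W1 group (CW1) is Weidang No. 1, a variety in wide cultivation. Seedlings were 4 weeks old, and the watered libraries were taken on day 0 of the drought experiment, 3 per cultivar, so this comparison used 6 of the 12 libraries of the series. The other 6 came from leaves on day 4 without water (DW1 and DG1, 3 each) and served here only for the estimate of the spread and for a look at the same genes under drought. The watered libraries were taken by the title of each sample, 3 titled as controls of W1 and 3 as controls of G1. Replicate 1 of CW1 is a control by its title and in the study's methods, although its treatment label says drought.

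Leaves that face wounding, touch, pathogens, cold or drying switch on a first wave of genes within minutes, among them transcription factors of the ERF, WRKY, ZAT and NAC families, calcium sensors, kinases of the MAP kinase cascade and ubiquitin ligases that remove signalling proteins. Transcripts of this class are made and destroyed quickly, so their level in a harvested leaf depends on what happened to it shortly before. In Arabidopsis many of the same genes also respond to drought and abscisic acid, the hormone that closes stomata.

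Total expected counts, the read numbers that the authors' software assigned to genes, were 17263956, 22837632 and 17816066 in replicates 1, 2 and 3 of CW1 and 17245690, 20400689 and 18930046 in CG1. Below, the 3 values of a group always stand in the order of replicates 1, 2 and 3, and TPM is a level corrected for gene length and scaled to the library total. No genome was used. A gene is a cluster of assembled transcripts from Trinity, written as its number (DN981_c0_g1), it carries the name of its best protein hit in another species, and genes that share the first part of the number can share reads. Leaf markers (RBCS, chlorophyll a-b binding proteins and rubisco activase) summed to 96310, 86210 and 125300 TPM in CW1 and to 74240, 144800 and 135900 TPM in CG1, and root markers to 336 to 640 TPM per library. Across 2614 genes that differed at least 4-fold between drought and watered G1 (edgeR, adjusted p under 0.05), replicate 1 of CW1 lay at a median of 0.10 of the way from watered to droughted G1. Replicates 2 and 3 of CW1 lay at -0.04 and 0.20, and the 3 DW1 libraries at 0.45, 0.70 and 0.78, so the library with the drought label sat with the watered ones.

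Of 29168 genes tested, 129 differed between watered G1 and W1 (0.442%; edgeR quasi-likelihood test, Benjamini-Hochberg adjusted p under 0.05), and these are the genes said to be called below. Of these, 110 were higher in CG1 (0.377%) and 19 lower (0.0651%). At least 4-fold differences were present in 120 of them (0.411%), 105 higher and 15 lower. At an unadjusted p under 0.05 there were 1952 higher (6.69%) and 1769 lower genes (6.06%), so the imbalance between the directions was slight at that threshold. The median log2 fold change was 4.28 over the 110 higher genes and -3.77 over the 19 lower ones, against -0.04 over all genes tested. In all 129 genes the 3 libraries of one cultivar lay above the 3 of the other on counts scaled to library size (CPM), which held for 7.36% of all genes tested in the higher and 10% in the lower direction. A symbol or a description of known function was present for 67 of the higher and 9 of the lower genes. Expected counts measure RNA per library, and fewer cells of a type and less RNA per cell cannot be told apart in whole leaves.

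Only 3 of the 129 genes stayed called whichever single library was left out (log2 fold changes of 6.91, 6.29 and 6.06). They are DN20045_c1_g1, DN20045_c1_g2 and DN17938_c1_g4, all higher in CG1, and the last, an uncharacterized protein, is named here because of this result. Leaving out 1 CW1 library brought the calls down to 3 or 4, and leaving out CG1 replicate 2 or 3 to 16 or 5. With a drought library left out there were between 60 and 117 calls, except without DG1 replicate 1, where there were 178. Without CG1 replicate 1 the calls went up to 1190 (3.76% of 31685 tested), 948 higher (2.99%) and 242 lower (0.764%), and all 129 genes were among them.

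**Figure D1:**
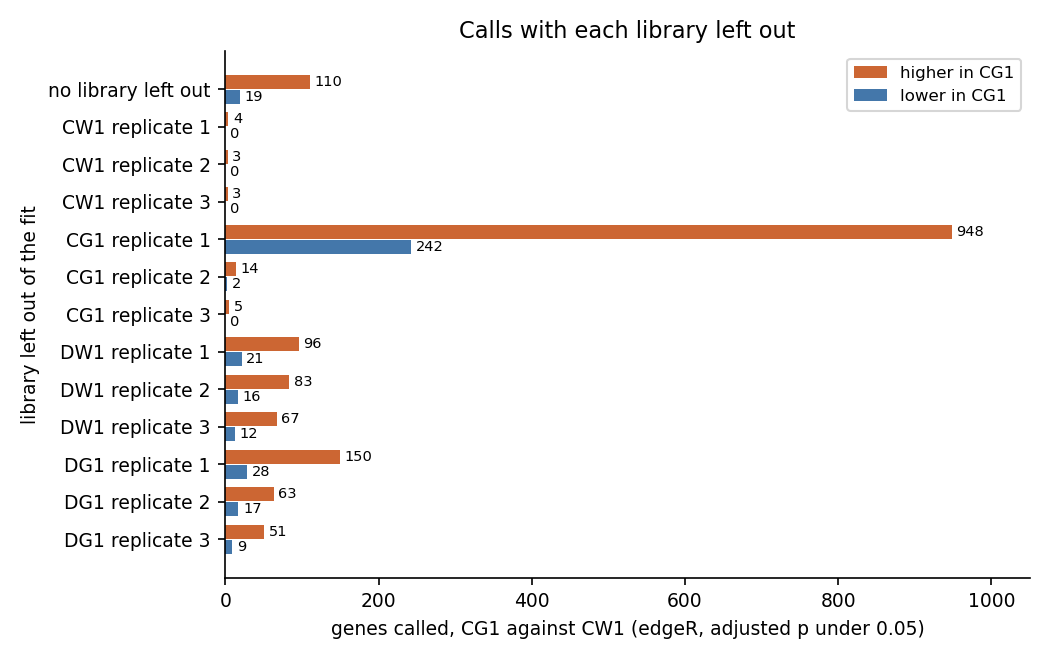
Number of genes called between CG1 and CW1 (x axis) in the fit of all 12 libraries and with each library left out in turn (y axis), higher in CG1 in orange and lower in blue. Without CG1 replicate 1, 948 higher and 242 lower genes were called, against 110 and 19 with all libraries.

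The transcription factors among the higher genes were mostly of families that act early in stress. DREB1A (DN13899_c1_g4), a factor that switches on cold and drought genes in Arabidopsis, held 0, 0.19 and 0.33 TPM in CW1 and 18.3, 118 and 132 TPM in CG1. DREB1D (DN17159_c0_g4), its relative, held 0.05, 0.5 and 0.95 TPM in CW1 and 23.8, 55.8 and 52.9 TPM in CG1. Both genes were near silence in every W1 library and plainly present in every G1 library, least in replicate 1. The log2 fold changes were 9.21 ± 1.46 (SE, n = 3; edgeR, adjusted p = 0.0297) and 6.66 ± 0.80 (adjusted p = 0.0211). ERF017 (DN15597_c0_g6) and ERF025 (DN16486_c0_g6), from the same family, had at most 0.27 TPM in any CW1 library. Their levels in CG1 were 8.18, 33.4 and 18.2 TPM for ERF017 and 7.43, 93.2 and 89.2 TPM for ERF025.

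ERF5 (DN21205_c0_g5), a factor of the chitin and defence response in Arabidopsis, differed from these in that W1 leaves also made it. Its levels were 14.5, 29.8 and 38 TPM in CW1 and 164, 291 and 275 TPM in CG1 (log2 fold change 3.35 ± 0.43, SE, n = 3; edgeR, adjusted p = 0.0211). Other tested genes named ERF5 were not called. Their log2 fold changes ran from -0.72 in DN21205_c0_g1, of the same component, to 2.57 in DN12772_c0_g1. The repressor ERF4 was called in both of its genes, DN18964_c0_g3 and DN15852_c0_g1, each with a log2 fold change of 3.15 (edgeR, adjusted p = 0.0211 and 0.0232). ERF2 (DN18578_c0_g9) was at 10.4, 10.4 and 9.74 TPM in CW1 and 33.8, 166 and 161 TPM in CG1. In all, 8 of 85 AP2/ERF factors tested were higher (against 0.377% of all genes) and 0 lower. The median log2 fold change over the family was 0.42 against -0.04 over all genes. The CG1 libraries lay above all CW1 libraries in 27 of the 85 (31.8%, against 7.36% of all genes).

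WRKY factors bind the W box of defence genes. Of 49 tested, 3 were higher (against 0.377% of all genes) and 0 lower (family median 0.60 on the log2 scale). WRKY40 (DN12996_c0_g2), a repressor in abscisic acid and defence signalling in Arabidopsis, was at 14.2, 12.9 and 16.1 TPM in CW1 and at 68.5, 514 and 450 TPM in CG1. W1 leaves were even in this gene, while the G1 leaves ran from 68.5 TPM in replicate 1 to 514 TPM in replicate 2 (log2 fold change 4.87 ± 0.79, SE, n = 3; edgeR, adjusted p = 0.0323). WRKY53 (DN16245_c0_g3), known from leaf senescence, was at 5.92, 2.64 and 3.78 TPM against 22.9, 102 and 63.6 TPM. WRKY41 (DN14318_c0_g3) was at 7.76, 3.7 and 6.32 TPM against 22.9, 99.3 and 56.6 TPM. In each of these factors replicate 1 of CG1 was the lowest of its group and still above all CW1 libraries.

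Zinc finger and other factors had the same order of libraries. ZAT6 (DN21176_c3_g3), a stress-induced repressor of the C2H2 class, was at 10.9, 10.9 and 25.8 TPM in CW1 and at 91.9, 505 and 358 TPM in CG1. ZAT5 (DN12996_c0_g6) was at 1.74, 0.41 and 0.76 TPM against 20.7, 174 and 74 TPM, but it shares a Trinity component with WRKY40 and the assignment of reads between their genes was not tested. Of 13 ZAT genes tested 2 were higher (against 0.377% of all genes) and 0 lower. The tandem CCCH zinc finger gene At2g40140 (DN16023_c0_g2), inducible by salt in Arabidopsis, went from 21.2, 31.1 and 38.1 TPM in CW1 to 128, 747 and 558 TPM in CG1 (log2 fold change 4.25 ± 0.62, SE, n = 3; edgeR, adjusted p = 0.0232). Its relative At3g55980 (DN18298_c0_g5) had a log2 fold change of 3.72.

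NAC48 (DN20573_c1_g3) was at 14.6, 12.1 and 19.4 TPM in CW1 and 65.8, 616 and 343 TPM in CG1, and NAC090 (DN13775_c0_g2) had a log2 fold change of 5.85. They were 2 of 41 NAC factors tested (against 0.377% of all genes). MYB44 (DN13351_c1_g7), which dampens the abscisic acid response in Arabidopsis, was at 3.11, 6.04 and 6.53 TPM against 34.9, 58.7 and 70.2 TPM. It was the 1 MYB factor called of 47 (against 0.377% of all genes called higher). The GRAS factors PAT1 (DN21293_c1_g13), known from phytochrome A signalling, and CIGR1 (DN18391_c0_g6), a chitin-inducible factor of rice, were higher as well. PAT1 showed the split within G1 clearly, with 15.7 TPM in replicate 1 and 219 and 168 TPM in replicates 2 and 3, over 5.5 to 6.42 TPM in W1. The bZIP factor BZIP53 (DN13541_c0_g3) had one of the smallest differences, from 33.9, 47.9 and 43 TPM to 85.5, 167 and 163 TPM (log2 fold change 1.95). A bHLH92-like gene (DN18312_c0_g1) was the 1 bHLH factor called of 79 tested (against 0.377% of all genes called higher). It held 0, 0.06 and 0.07 TPM in CW1, 2 counts in all, and 0.66, 104 and 40.1 TPM in CG1. That is a ratio of 1470 with a counting interval (exact Poisson, 95%) of 407 to 12137, and the interval covers counting error only.

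**Figure D2:**
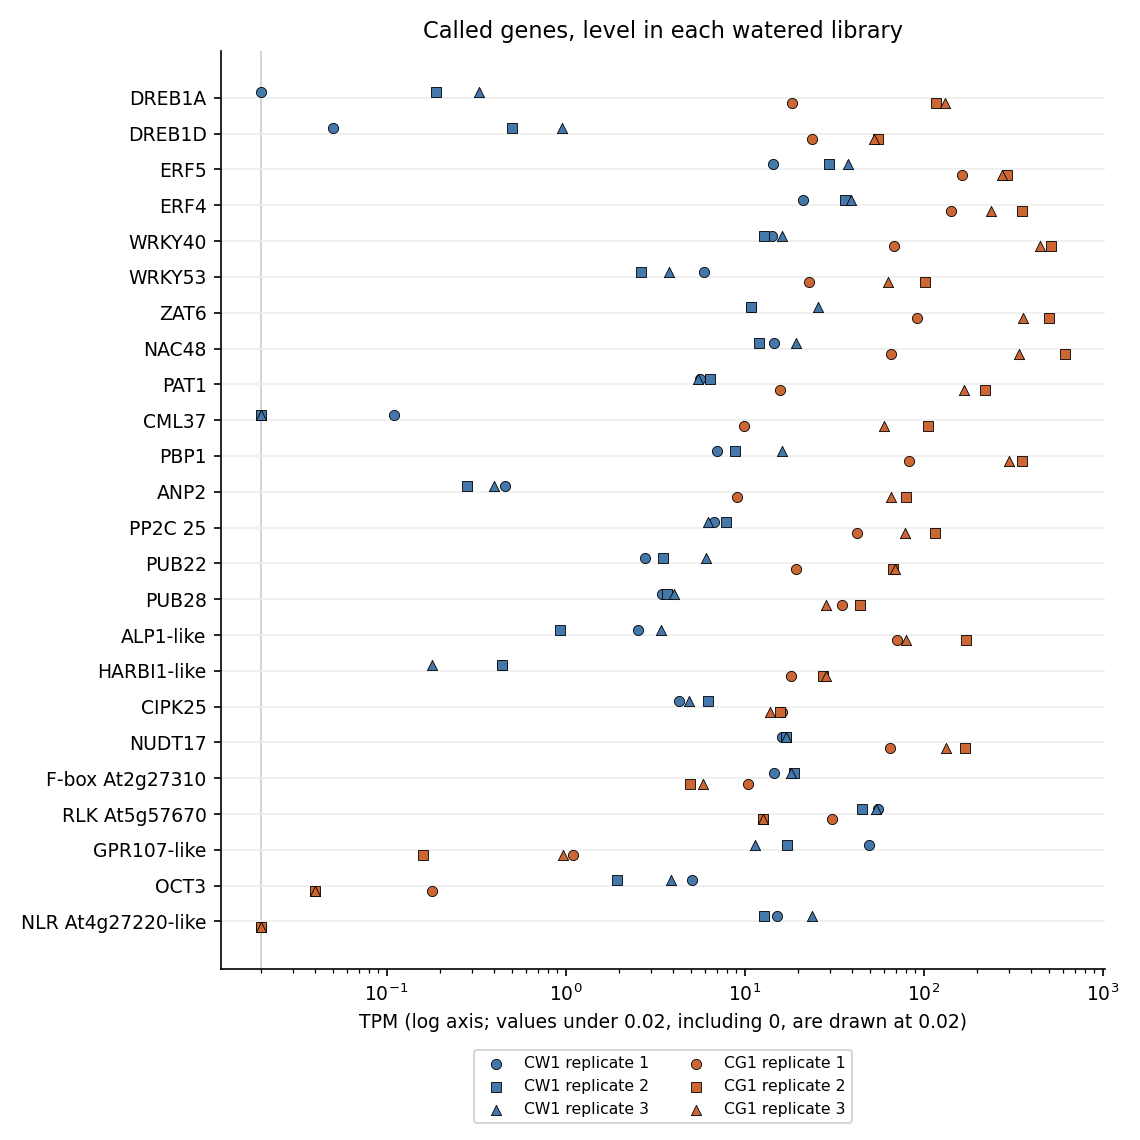
Level in TPM (x axis, log scale) of 24 called genes (y axis) in each watered library, with values under 0.02 TPM drawn at 0.02, CW1 in blue and CG1 in orange, and with circles, squares and triangles for replicates 1, 2 and 3. In DREB1A, WRKY40 and PAT1 the circle of CG1 lies between the CW1 points and the other CG1 points, while in CIPK25 and the HARBI1-like gene it lies near its own group.

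Calcium signals pass through sensor proteins to kinases. In the list of 127 such genes, 4 were higher (against 0.377% of all genes) and 1 lower (median log2 fold change 0.02). The list came from annotation words, and its lower member is the receptor-like kinase At5g57670 (DN19129_c0_g3), described below. The calmodulin-like protein CML37 (DN14122_c0_g1), a wound and drought gene in Arabidopsis, held 0.11, 0 and 0 TPM in CW1, which is 1 count, and 9.98, 106 and 60.3 TPM in CG1 (edgeR, adjusted p = 0.0211). Other genes of that name were not called. Among them DN14911_c0_g2 was at 20.7, 10.5 and 17.3 TPM in CW1 and 44.4, 285 and 147 TPM in CG1 (edgeR, adjusted p = 0.0626). PBP1 (DN19017_c0_g5), a calcium-binding partner of the kinase PINOID, was at 7.02, 8.83 and 16.2 TPM against 83.3, 357 and 302 TPM. DN14122_c0_g1 and PBP1 were lowest in replicate 1 among the G1 libraries. CAMBP25 (DN20778_c1_g4), a calmodulin-binding protein of osmotic stress, had a log2 fold change of 3.62 ± 0.51 (SE, n = 3; edgeR, adjusted p = 0.0232). An Ole e 8-like calcium-binding protein (DN17847_c1_g1), outside the list, reached 1420 and 1180 TPM in CG1 replicates 2 and 3, with 235 TPM in replicate 1 and 94.4 to 109 TPM in W1. The kinase CIPK25 (DN16333_c0_g2), which works with calcineurin B-like sensors, was unlike the rest: its 3 G1 libraries were even, at 16.1, 15.8 and 13.9 TPM over 4.33, 6.28 and 4.9 TPM in W1 (log2 fold change 1.72 ± 0.29).

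ANP2 (DN981_c0_g1) belongs to the kinases at the head of the MAP kinase cascade that answer oxidative stress in Arabidopsis. It was at 0.46, 0.28 and 0.4 TPM in CW1 and at 9.12, 79.3 and 65.5 TPM in CG1 (log2 fold change 7.33 ± 1.25, SE, n = 3, edgeR, adjusted p = 0.0366). ANP2 was the 1 member called of 48 in that list (against 0.377% of all genes called higher). The gene is among 15 that the study chose for qRT-PCR, and those primers are the sequences at hand for the members. They are shown for ANP2 and for ERF13 (DN20449_c1_g6), an ERF factor that came near the threshold, in the 5′ to 3′ direction, and they were not placed on a transcript.
ANP2 forward: gtccattcacaaaagcgggt
ANP2 reverse: acccaagcgcccatatatca
ERF13 forward: cgatttcagcttcaccgagg
ERF13 reverse: agccacactctagcaccttt

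ANP2 was the only one of these 15 genes called. ERF13 was at 0.23, 0.52 and 0.07 TPM in CW1 and 4.55, 44.5 and 31.7 TPM in CG1, with groups that did not overlap (edgeR, adjusted p = 0.0633, and 0.00834 without CG1 replicate 1). WRKY22 (DN20753_c1_g3) was at 3.34, 3.7 and 3.27 TPM against 5.54, 25.2 and 24.1 TPM (adjusted p = 0.135, and 0.0155 without that replicate). The other 12 genes had log2 fold changes between -2.36 and 0.64 and were not called in either fit.

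A few genes of signal reception and of its shut-off were among the 110 higher genes. The receptor kinase FERONIA (DN21091_c0_g1), which reads cell wall and peptide signals, was at 27.2, 11 and 33 TPM in CW1 and 119, 453 and 595 TPM in CG1, and an unnamed gene of the same component (DN21091_c0_g3) followed it, with 427, 1900 and 2330 TPM in CG1. LECRK91 (DN17587_c0_g6) was the other of 2 genes higher in the list of 620 receptor-like kinases tested, a share close to that of all genes. This list came from annotation words and missed some kinases. Outside it, PK1 (DN17619_c0_g1), annotated as a receptor protein kinase, and the kinase-like protein CCR4 (DN18433_c1_g5) were also called higher. Their log2 fold changes were 3.14 and 3.38 (edgeR, adjusted p = 0.0465 and 0.0262). The protein phosphatase At2g30020 (DN16647_c0_g9), which inactivates stress MAP kinases in Arabidopsis, was at 6.75, 7.83 and 6.22 TPM against 42.7, 116 and 79 TPM (log2 fold change 3.76 ± 0.47, SE, n = 3; edgeR, adjusted p = 0.0211). It was the 1 phosphatase 2C called of 62 (against 0.377% of all genes called higher).

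Ubiquitin ligases mark proteins for breakdown. Of 120 of the U-box and RING types, 4 were higher (against 0.377% of all genes) and 0 lower, while their median log2 fold change was -0.11. PUB22 (DN17162_c0_g1) and PUB19 (DN18543_c0_g4), which restrain drought and defence responses in Arabidopsis, were at 19.3, 67.9 and 69 TPM and at 6.12, 29.2 and 23.4 TPM in CG1. In CW1 the 2 genes were at 2.77 to 6.11 TPM and at 0.15 to 0.32 TPM. PUB28 (DN19765_c1_g6) rose above W1 evenly in all G1 libraries, 35.2, 44 and 28.4 TPM over 3.46, 3.68 and 4.06 TPM, so replicate 1 was not the lowest there. ATL2 (DN17296_c2_g3), a chitin-responsive RING protein, was at 6.04, 7.1 and 15.3 TPM against 87.9, 141 and 87 TPM. RDUF2 (DN16999_c0_g6) and the zinc finger protein SAP5 (DN16606_c0_g4), also with a part in ubiquitination, had log2 fold changes of 2.68 and 2.76.

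Genes derived from a transposase gave 2 of the 3 calls that held with any single library left out. ALP1 and HARBI1-like proteins descend from the nuclease of Harbinger DNA transposons, and in Arabidopsis ALP1 acts against Polycomb silencing. DN20045_c1_g1, ALP1-like, was at 2.55, 0.93 and 3.43 TPM in CW1 and at 71, 173 and 79.6 TPM in CG1 (log2 fold change 6.91 ± 0.60, SE, n = 3; edgeR, adjusted p = 0.00273). DN20045_c1_g2, HARBI1-like, was at 0.44, 0.44 and 0.18 TPM against 18.1, 27.6 and 28.4 TPM (log2 fold change 6.29 ± 0.49; adjusted p = 0.00205). In both, replicate 1 of CG1 stood 0.84 of the way from the W1 mean to the mean of the other G1 libraries on the log2 scale. DN20045_c1_g3 of the same component, DN21540_c0_g1 and DN17499_c0_g7 were also higher. That makes 5 of 32 tested (against 0.377% of all genes) and 0 lower, with a list median of 0.11. The 3 genes of component DN20045_c1 may divide reads among them, and their summed counts were called as well (log2 fold change 5.40 ± 0.67; edgeR over components, adjusted p = 0.0157).

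Further genes higher in CG1 belonged to no single group. CAF1-11 (DN16164_c0_g8), a deadenylase that starts mRNA decay, was at 27.1, 46 and 70.3 TPM in CW1 and 209, 541 and 453 TPM in CG1. NUDT17 (DN13001_c0_g3), a Nudix hydrolase, was at 16.2, 17 and 17 TPM against 64.6, 171 and 133 TPM. In both genes the G1 libraries ran in the order 1, 3, 2. Other genes named NUDT17 were not called. Among them DN16933_c0_g1 was at 72.2, 56 and 49.3 TPM in CW1 and 66.6, 279 and 203 TPM in CG1 (edgeR, adjusted p = 0.142). PUMP5 (DN16678_c0_g1), a mitochondrial carrier, was at 87.4, 519 and 426 TPM over 19.9 to 26.1 TPM in W1 (log2 fold change 4.17 ± 0.60, SE, n = 3; edgeR, adjusted p = 0.0232). EXORDIUM (DN15344_c0_g6), a brassinosteroid-responsive growth gene, was at 70.6, 130 and 70.9 TPM against 293, 1180 and 1240 TPM. DES8.11 (DN19175_c0_g4), a fatty acid desaturase, was at 24.2, 413 and 132 TPM in CG1 over 2.33 to 4.39 TPM in W1. It was the 1 gene called of 54 desaturases (against 0.377% of all genes called higher), with a list median of 0.43. At an unadjusted p under 0.05 (edgeR), 17 desaturases were higher (31.5%, against 6.69% of all genes) and 0 lower. Without CG1 replicate 1, 10 were called higher (17.5%, against 2.99%) and 0 lower. Smaller differences were found in the syntaxin SYP121 (DN20017_c0_g3), which docks vesicles at the plasma membrane, with a log2 fold change of 3.02, and in OS9 (DN16893_c1_g2), a protein of quality control in the endoplasmic reticulum, with 1.46.

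A panel of rapidly induced genes (ERF1A, ERF2, ERF5 and ERF109, DREB1, WRKY33 and WRKY40, ZAT10 to ZAT12, CML35 to CML41, TIFY repressors, CAF1, MPK3, XTH23, PUB20 to PUB28, NUDT17, EXORDIUM and RAV1) had 65 members tested, of which 11 were higher and 0 lower. The share called higher over all genes was 0.377%. The median log2 fold change of the panel was 2.47, and 36 members had CG1 libraries above all CW1 libraries (55.4%, against 7.36% of all genes). The panel was chosen with earlier results of these data known, so its median and shares are a description and no independent evidence. Its summed level was 1229, 1278 and 1246 TPM in CW1 and 2505, 8211 and 6842 TPM in CG1. The W1 sums were thus within a narrow range, and on this sum replicate 1 of CG1 was nearer to them than to its own replicates. In the median over genes replicate 1 was nearer to its own replicates. There it stood 1.42 above the W1 mean on the log2 CPM scale, against 2.51 and 1.92 in replicates 2 and 3. Some members came close to the threshold and were picked for mention after their values were seen. The JAZ repressor of jasmonate signalling TIFY11B (DN20870_c0_g1) was at 10.2, 7.24 and 6.58 TPM against 20.8, 450 and 334 TPM (edgeR, adjusted p = 0.0501). WRKY33 (DN16155_c0_g1) had an adjusted p of 0.0623, ERF1A (DN16486_c0_g9) of 0.0633 and ZAT10 (DN16154_c0_g1) of 0.0659. MPK3 (DN17114_c0_g1), a stress MAP kinase, was at 13.8, 12.9 and 20.4 TPM in CW1 and at 15.5, 305 and 202 TPM in CG1, so replicate 1 was within the W1 range (adjusted p = 0.089, and 0.000648 without replicate 1).

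Fewer genes were lower in watered G1, and most had no informative name. A gene like the Arabidopsis immune receptor At4g27220 (DN19129_c0_g5) was at 15.2, 12.8 and 23.8 TPM in CW1 and at 0 in all CG1 libraries, 109 counts against 0. Against a floor of 3 counts over the group this is at least 31.6-fold lower (edgeR, adjusted p = 0.0262). It was the 1 immune receptor of the NLR type called of 197 (against 0.0651% of all genes called lower). A receptor-like kinase of the same component, At5g57670 (DN19129_c0_g3), was at 55.4, 45.4 and 54.2 TPM against 30.9, 12.7 and 12.6 TPM. The summed component was not called (log2 fold change -0.61; adjusted p = 0.101). Of the unnamed genes, DN15565_c0_g6, DN18947_c0_g5 and DN20016_c0_g3 also had 0 counts in CG1, which is at least 54.6-fold, 32.2-fold and 29.3-fold lower.

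OCT3 (DN14768_c1_g2), an organic cation and carnitine transporter, was at 5.06, 1.95 and 3.89 TPM in CW1 and 0.18, 0.04 and 0.04 TPM in CG1 (log2 fold change -5.30 ± 0.78, SE, n = 3; edgeR, adjusted p = 0.0232). CYP96A15 (DN21068_c1_g4), a hydroxylase of wax alkanes in Arabidopsis, was at 5.33, 5.75 and 7.71 TPM against 1.97, 1.78 and 1.25 TPM. It was the 1 cytochrome P450 called of 216 (against 0.0651% of all genes called lower). The F-box protein At2g27310 (DN17673_c0_g2) had the smallest difference of the 19, from 14.6, 18.8 and 18.2 TPM to 10.4, 4.95 and 5.88 TPM. A GPR107-like gene (DN20424_c0_g1) fell from 49.4, 17.2 and 11.5 TPM to 1.1, 0.16 and 0.97 TPM. In TIF3B1 (DN16215_c1_g3), a subunit of translation initiation factor 3, the groups were apart on CPM but overlapped on TPM, 13, 6.85 and 4.61 against 5.85, 5.76 and 4.56. A transcript like the mitochondrial open reading frame AtMg00810 (DN13971_c1_g4), which carries retrotransposon sequence, was at 2.14 to 3.67 TPM in W1 and 0.11 to 0.28 TPM in G1.

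Of 53 gene lists, 32 had no member called, 18 had higher and 6 had lower members. Photosynthesis was among the lists with none. The 66 genes of light harvesting and photosystems had a median log2 fold change of 0.35, the 23 of the Calvin cycle 0.37 and the 75 encoded in the plastid 0.61. Of the photosystem list 4 genes were higher at an unadjusted p under 0.05 (6.06%), and of the plastid list 17 (22.7%), against 6.69% of all genes. Also without calls were the antioxidant enzymes (68 tested, median -0.03), aquaporins (30, -0.22) and heat stress factors and chaperones (90, 0.00). Abscisic acid synthesis and signalling had none of 28 (median 0.00). At an unadjusted p under 0.05, 6 of its genes were higher (21.4%, against 6.69% of all genes) and 2 lower (7.14%, against 6.06%). Without CG1 replicate 1, 3 were called higher (10.3%, against 2.99%) and 1 lower (3.45%, against 0.764%). LEA proteins and dehydrins had none of 14 (median -0.02), and without that replicate 2 were called higher (14.3%) and 0 lower. The summed level of this list was 233.5, 263.6 and 366.7 TPM in CW1 and 383.3, 915 and 751.8 TPM in CG1. Auxin response and transport leaned the other way, with a median of -0.50 over 122 genes and 34 of them lower in every G1 library than in any W1 library (27.9%, against 10% of all genes). None was called by edgeR with all libraries, and 32 had an unadjusted p under 0.05 in the lower direction (26.2%, against 6.06% of all genes). Without CG1 replicate 1, 8 were called lower (6.45%, against 0.764% of all genes) and 0 higher. The 23 circadian clock genes had a median of -0.17, and 8 lay lower without overlap (34.8%, against 10% of all genes). None was called with all libraries, and 5 were lower at an unadjusted p under 0.05 (21.7%, against 6.06%) by edgeR. Without CG1 replicate 1, 2 were called lower (8.7%, against 0.764%) and 0 higher. Markers of flower, guard cell and vascular tissue had 0 calls.

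Replicate 1 of CG1 differed from replicates 2 and 3 in how far it had moved from W1. Of the 110 higher genes it was the G1 library nearest to W1 in 100, and each of the other replicates in 5. Its median distance from the W1 mean over these genes was 2.48 on the log2 CPM scale, against 4.66 for the mean of replicates 2 and 3. In the 19 lower genes the split was smaller, -3.05 against -3.43, and replicate 1 was nearest to W1 in 11. These genes had to differ in replicate 1 too to be called, so the genes called without it are described next, of which 1137 had passed the filter on low counts with all libraries.

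Over these 1137 genes replicate 1 stood at a median of 0.22 of the way from W1 (0) to the mean of its own replicates (1), with quartiles of 0.03 and 0.44. It lay under 0.25 in 620 genes and over 0.75 in 72, and in 356 it was within the range of the W1 libraries. The 897 higher genes had a median position of 0.17 (log2 difference from W1 of 0.41 in replicate 1 and 2.64 in replicates 2 and 3), and the 240 lower genes one of 0.35 (-0.67 and -2.14). The other 5 watered libraries, each set against genes called without it, had median positions of 0.97 to 1.29, but over only 3 to 16 genes. The genes were chosen on replicates 2 and 3 and not on replicate 1, so these positions are a description, with no test.

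**Figure D3:**
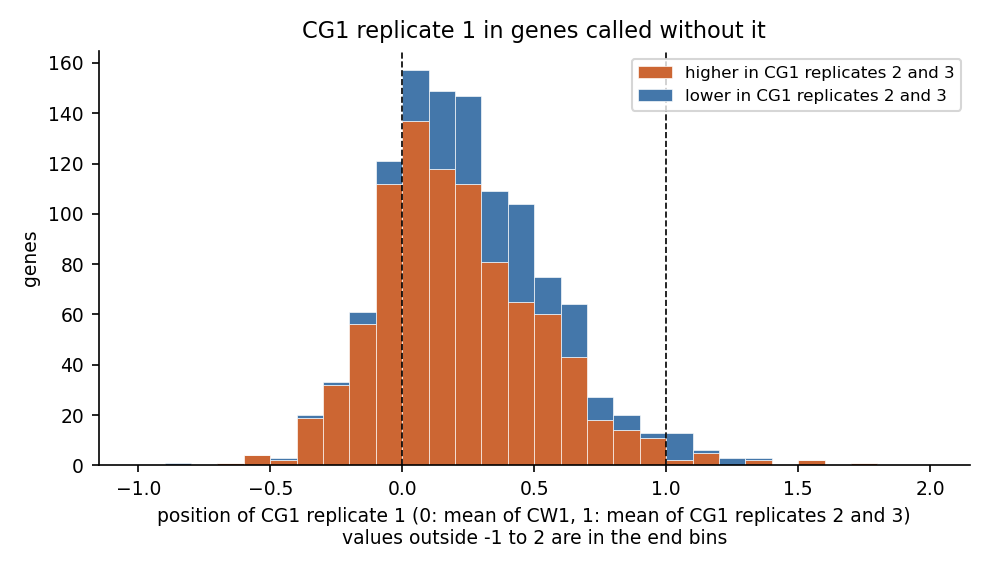
Position of CG1 replicate 1 on the log2 CPM scale (x axis, 0 for the CW1 mean and 1 for the mean of CG1 replicates 2 and 3) in the 1137 genes called without it, with the number of genes on the y axis, genes higher in replicates 2 and 3 in orange and lower ones in blue. The median lies at 0.22, and 72 genes lie over 0.75.

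The position depended on the gene group. The median position of replicate 1 was 0.74 over the 6 transposase-derived nucleases called without it, 0.48 over 11 transposons and retrotransposons, 0.44 over 19 AP2/ERF factors and 0.43 over 10 desaturases. At the low end it was -0.02 over 6 wax and cutin genes, 0.05 over 11 phosphatases 2C, 0.12 over 5 genes of cellulose, pectin and lignin walls and 0.14 over 5 bHLH factors. All 6 genes of the jasmonate pathway lay under 0.25. WRKY factors were at 0.30 over 17, calcium sensors and kinases at 0.18 over 27 and receptor-like kinases at 0.18 over 37. The JAZ gene TIFY10A (DN15616_c0_g1) illustrates the low end, at 65.6 TPM in replicate 1 with 35.4 to 56.7 TPM in W1 and 650 and 532 TPM in replicates 2 and 3. A minority went further in replicate 1 than in its fellows, such as another ERF5 gene, DN18226_c0_g6, with 33 TPM in replicate 1 and 11.6 and 10.1 TPM in the others.

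Nuclear photosynthesis genes also divided the G1 libraries, with replicate 1 on the other side of the W1 mean. Light harvesting and photosystem genes had a median of -0.37 against the W1 mean in replicate 1 and of 0.70 and 0.53 in replicates 2 and 3, and the Calvin cycle genes -0.33 against 0.63 and 0.55. The W1 libraries varied as well. Light harvesting sums were 85570, 84140 and 117300 TPM in CW1 and 68760, 119700 and 112100 TPM in CG1. On this sum replicate 3 of CW1 lay between replicates 2 and 3 of CG1. Calvin cycle sums were 49310, 36070 and 53640 TPM in CW1 and 34520, 78960 and 78260 TPM in CG1. Plastid-encoded transcripts did not divide in their medians over genes, at 0.77, 0.74 and 0.65. Their summed level did, at 6807 TPM in replicate 1 and 10400 and 9826 TPM in replicates 2 and 3, with 8577, 6180 and 7820 TPM in CW1. Cytosolic ribosomal proteins were at 0.36 in replicate 1 and at 0.09 and 0.12 in the others. The summed level of cell cycle and histone genes varied within both cultivars, 24170, 33050 and 9932 TPM in CW1 and 25400, 10630 and 15850 TPM in CG1.

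**Figure D4:**
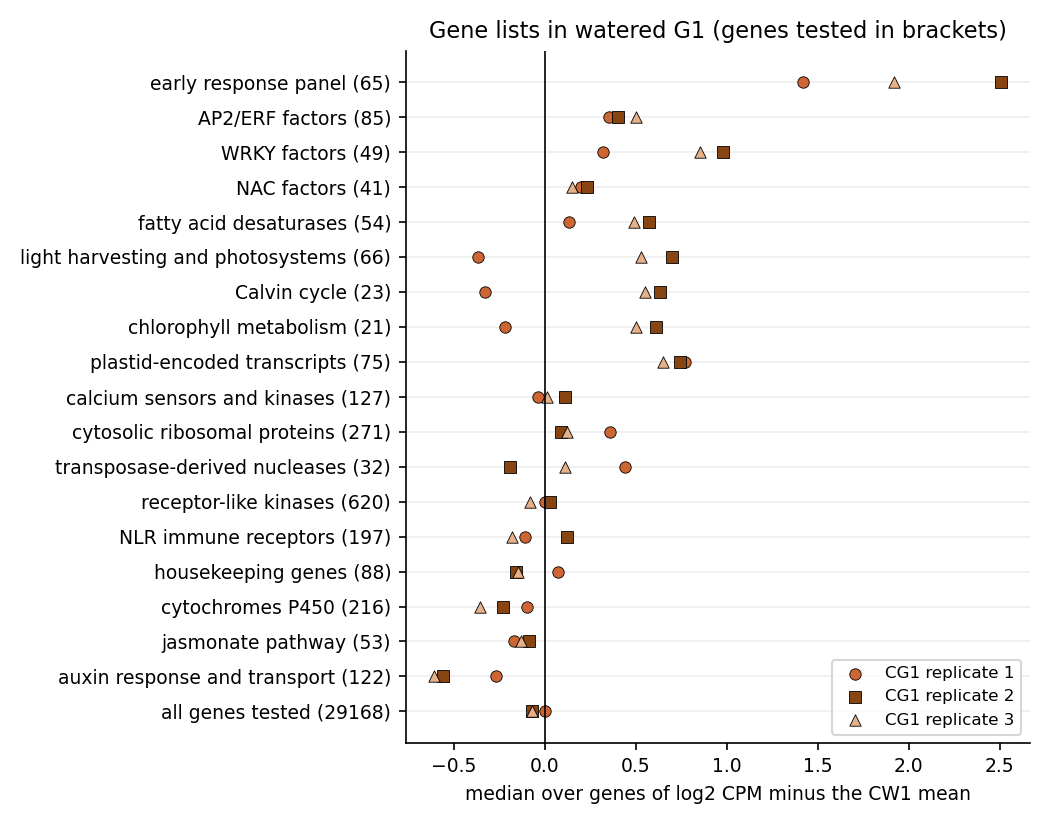
Median over the tested genes of a list of the log2 CPM difference from the CW1 mean (x axis), for 18 gene lists and all genes tested (y axis, number of genes in brackets), with circle, square and triangle for CG1 replicates 1, 2 and 3. The rapidly induced panel lies at 1.42 in replicate 1 and at 2.51 and 1.92 in replicates 2 and 3, and the light harvesting genes at -0.37, 0.70 and 0.53.

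Replicate 1 of CG1 also had genes of its own. In 189 genes it was at least 4-fold above all 5 other watered libraries on TPM + 1 and in 5 at least 4-fold below, but replicate 1 of CW1 stood above the rest in 180, and the other 4 libraries in 46 to 92. A DC2.15-like proline-rich protein (DN20430_c0_g8) was at 125 TPM in CG1 replicate 1 and at no more than 0.08 TPM in the other watered libraries. Germacrene A synthase GAS1 (DN19224_c0_g2), a terpene enzyme, was at 46.7 TPM there and at 0.37 to 1.68 TPM elsewhere, and beta-phellandrene synthase PHS1 (DN12426_c0_g1) at 14.9 TPM and at 0. Pearson r of log2(TPM + 1) over 37998 genes was 0.917 between replicates 2 and 3 of CG1, but 0.862 and 0.867 between either and replicate 1. Among the W1 libraries r was 0.881 to 0.92. Replicate 1 had r of 0.866 to 0.892 with the W1 libraries, and replicates 2 and 3 had 0.831 to 0.848. These are correlations across genes, which are not independent replicates.

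Some transcripts with a mouse best hit were nearly missing from this replicate. Mitochondrial transcripts with a mouse protein as best hit (7 genes, singled out after their values were seen) summed to 0.04 TPM in CG1 replicate 1, to 32.1 and 26 TPM in replicates 2 and 3 and to 15.6 to 21.5 TPM in CW1. Among the drought libraries DW1 replicate 1 had 0 TPM of them and DW1 replicate 3 had 1.96 TPM, against 19 to 23.5 TPM in the other 4. Those with a human best hit were not low in CG1 replicate 1 (105 TPM, against 52.7 to 84 TPM in the other watered libraries), nor were those of rat (28.5 TPM, against 18.1 to 38.6 TPM) or pig (19 TPM, against 14.9 to 34.8 TPM). Genes with a vertebrate best hit and no plant hit summed to 1460 to 2034 TPM over the 6 watered libraries, with the highest sum in CG1 replicate 1. The labels name no sequencing run or batch, and the part of these transcripts, or of a batch, in the split between the G1 libraries was not tested.

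On day 4 without water the cultivar difference in the same genes was mostly small, and DG1 replicate 1 stands apart there with 24736 TPM of transcripts with a vertebrate best hit and no plant hit (1399 to 2440 TPM in the other drought libraries). None of the 129 genes was called between DG1 and DW1 (edgeR), where 2 genes in all were called (0.00686%), 37 of the 129 had an unadjusted p under 0.05 (16% of all genes tested), and the 2 contrasts share no library. The change of the cultivar difference between watered and droughted leaves was called in 4 genes (0.0137%), of which DN20045_c1_g2 and DN17938_c1_g4 are among the 129. The sign was the same in 119 of the 129 genes, and in 106 without DG1 replicate 1, against 59.5% of all genes tested. The median drought difference was 0.82 on the log2 scale over the 110 genes higher in watered G1 (0.50 without DG1 replicate 1) and -1.43 over the 19 lower ones (-1.16). The drought difference was under 0.25 of the watered one in 75 genes and at least 0.5 of it in 23. The 129 genes were chosen on their watered difference, which favours genes where that difference came out large. How much of the gap between the watered and drought differences comes from this choice was not tested. The drought groups kept apart in the same direction in 43 of the higher genes (9.76% of all genes tested were higher without overlap) and in 12 of the lower ones (9.36%).

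The panel of rapidly induced genes had a median drought difference of 0.54 on the log2 scale, against 2.47 in watered leaves. Examples chosen after their values were seen follow. PBP1 (DN19017_c0_g5), with 83.3, 357 and 302 TPM in watered G1, held 22.5, 12.9 and 11.1 TPM in DG1 and 6.64, 7.86 and 9.63 TPM in DW1. At2g40140 (DN16023_c0_g2) was at 28.4, 24.9 and 26.3 TPM in DG1, close to 19.9, 27.2 and 24.9 TPM in DW1. The panel summed to 2473, 1456 and 1635 TPM in DG1 and to 1173, 1696 and 1357 TPM in DW1, so only DG1 replicate 1 was above the DW1 range. Among the 23 genes that kept at least 0.5 of the difference, most had no informative name, and 3 of them follow. The immune receptor-like gene DN19129_c0_g5 stayed at 0 in all 3 DG1 libraries and at 7.1, 7.64 and 5.12 TPM in DW1. The F-box gene At2g27310 (DN17673_c0_g2) was at 22.7, 28.1 and 26.2 TPM in DW1 and at 13.1, 13.5 and 11.3 TPM in DG1, 0.90 of its watered difference on the log2 scale. The unnamed gene DN21615_c0_g6 had 0 counts in CW1 and was listed at 0 in DW1, with 4.98, 2.01 and 5.34 TPM in CG1 and 3.05, 3.14 and 5.04 TPM in DG1.

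**Figure D5:**
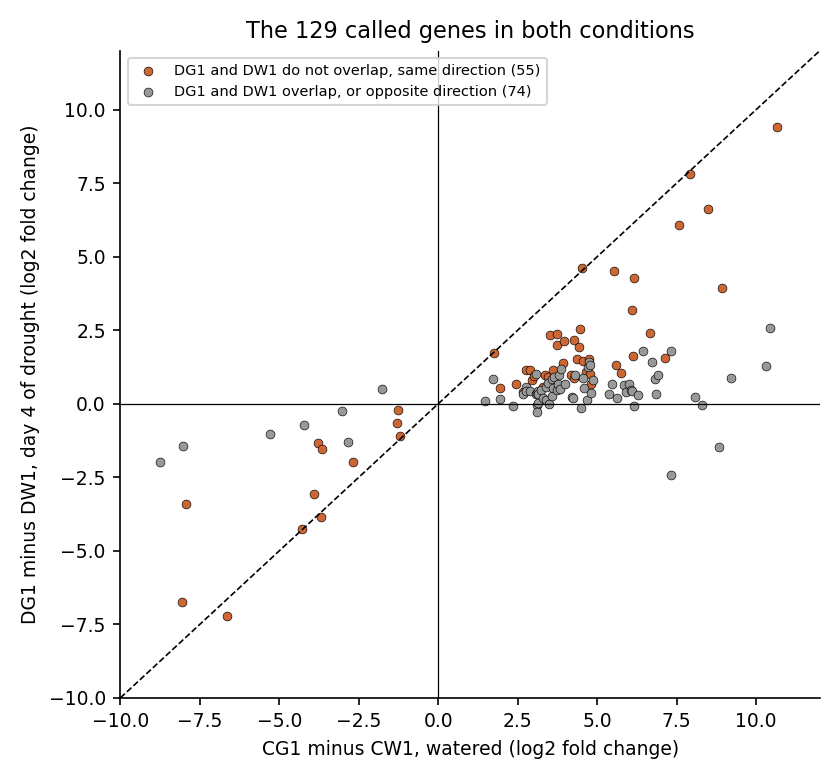
Log2 fold change between the cultivars in watered leaves (x axis, CG1 minus CW1) and on day 4 of drought (y axis, DG1 minus DW1) for the 129 called genes, with a dashed line of equality and genes whose drought libraries do not overlap in the same direction in orange. Most higher genes lie near 0 on the y axis (median 0.82), and fitted values of the 5 genes with 0 counts in a watered group depend on the prior count.

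The unit of counting mattered for some of these genes. Of the 129 genes, 125 had another tested gene in their Trinity component (91.1% of all genes tested had one), and in 9 of them such a gene differed at least 4-fold in the opposite direction (8.18% of all genes tested). In 46 a neighbour differed at least 4-fold in the same direction, and 7 components held 15 of the called genes. When counts were summed over components, 39 of 10630 components were called (0.367%), and 33 of these held a called gene. WRKY40 and ZAT5 (summed log2 fold change 3.64; adjusted p = 0.0383) and FERONIA with DN21091_c0_g3 (4.27; 0.0351) stayed called as components, while the 2 TIC32-like genes of DN20178_c1 did not (3.09; edgeR over components, adjusted p = 0.073).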

How the data were processed

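RNA of leaves was sequenced in 12 libraries, 3 per group. In the study's methods reads of all samples were assembled with Trinity 2.5.0 and quantified with RSEM 1.2.31. The labels name other kits, pools of pots and a mouse genome build, so what a replicate holds is unclear, and the tests rest on the variation seen among these libraries, which may be technical. The expected counts were estimated by the authors with RSEM and deposited for 55270 genes without normalization. The TPM values deposited beside them were scaled by the authors for gene length and library total.

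Expected counts were rounded, filtered with filterByExpr by group (26102 genes left out) and fitted in edgeR 4.0.16 (R 4.3.3) with TMM factors and 1 mean per group over 12 libraries (8 residual degrees of freedom). P-values of the quasi-likelihood test were adjusted by the Benjamini-Hochberg method over all genes tested. Standard errors were obtained from the fold change and F as |log2FC| / sqrt(F). The design follows the groups of the study, whose tool, DESeq2 (1.42.0 here), was an alternative, as was limma 3.58.1 on log2(TPM + 1). Other alternatives were RLE factors, no filter, only the 6 watered libraries, the replicate number as a block, counts summed per component and each library left out. The functions were tested on simulated data. Libraries with the same number in CW1 and CG1 did not deviate together (r = -0.025, -0.116 and -0.074). Between CG1 replicate 1 and DW1 replicate 1 r was 0.27. The remaining same-numbered pairs of groups had r from -0.177 to 0.104.

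Gene lists came from words in the annotation. The members, lists and rules were chosen with earlier results of these data known. Named genes are the 25 higher and 15 lower genes (6 qualified) with the smallest adjusted p among those with at least 4-fold differences, a known name and groups that do not overlap, up to 4 called members per list and direction, the 8 largest folds per direction without CG1 replicate 1, the genes of the primer table and the 5 genes per direction in which CG1 replicate 1 stood furthest apart. Other genes named were chosen after their values were seen. Counting intervals are exact Poisson intervals at 95%, and a group at 0 was set to a floor of 3 counts.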

Additional observations from a re-analysis of the deposited data

Results flagged for a closer look

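The cultivar difference in watered leaves and that on day 4 of drought differed in 2 of the called genes by the interaction in the same edgeR fit, where 4 genes of 29168 passed (0.0137%). The HARBI1-like gene DN20045_c1_g2 had a log2 fold change of 6.29 in watered and of 0.30 in droughted leaves, an interaction of -5.99 ± 0.61 (SE; edgeR, adjusted p = 0.023, and 0.0299 without DG1 replicate 1). It was at 2.08, 1.21 and 1.21 TPM in DW1 and at 1.16, 1.76 and 2.27 TPM in DG1. The uncharacterized gene DN17938_c1_g4 was at 0.74, 0.92 and 0.76 TPM in CW1, 27.6, 63.6 and 48.9 TPM in CG1, 1.03, 2.25 and 0.97 TPM in DW1 and 2.63, 1.75 and 1.2 TPM in DG1. Its interaction was -5.58 ± 0.69 (edgeR, adjusted p = 0.0465, and 0.0436 without DG1 replicate 1).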

How the results depend on the processing

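The number of calls depended strongly on the setting, the direction of named genes did not: none changed sign under an alternative that called it. Against 129 calls and 120 of at least 4-fold, DESeq2 gave 1416 and 963, limma-trend 259 and 199 on log2(TPM + 1) and 213 and 193 on log2(TPM + 0.1), and the 6 watered libraries alone 18 and 18. RLE factors gave 126 and 118, and no filter 182 and 170. Counts summed per component gave 39 and 35. With the replicate number as a block there were 23 and 23, although same-numbered libraries of CW1 and CG1 did not deviate together. The single libraries left out gave 3 to 1190 calls and 3 to 793 of at least 4-fold, the highest without CG1 replicate 1. The 6 watered libraries without that replicate, tried after seeing the data, gave 1961 and 1274. All 129 genes passed in DESeq2 and without CG1 replicate 1. The cause of these shifts was not tested. Genes with few counts in CW1 limit the precision of their folds.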
